A study of Drosophila melanogaster with 17 samples.

Results

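The genes described here are those of the bone morphogenetic protein (BMP) pathway of Drosophila melanogaster, read in sorted intestinal progenitor cells. The list holds 10 genes by FlyBase symbol, namely dpp, gbb, tkv, sax, put, Mad, Med, Dad, brk and shn. Of these, 9 were matched by identifier to the 17737 genes of the count table, and Med, the partner of Mad, was not analysed here. All 9 matched genes passed the filter on low counts. With the exception of dpp, each averaged at least 50 counts over the libraries.

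RNA was sequenced from small green fluorescent (GFP+) cells sorted from the midguts of adult virgin females, with 100 guts pooled per sample. The control genotype is labelled esgts, the field's name for a temperature-sensitive driver active in midgut progenitors, and the knockdown genotype is labelled esgts/NRNAi, with RNA interference (RNAi) against Notch. All flies spent 5 days at 25 °C, were then kept germ-free or fed Lactobacillus brevis or Lactobacillus plantarum overnight, and spent 5 further days at 29 °C. The 6 groups are germ-free control (n = 2, a sample having been lost at RNA extraction), L. brevis control, L. plantarum control, germ-free Notch RNAi, L. brevis Notch RNAi and L. plantarum Notch RNAi (n = 3 each). Both genotypes carry the driver, so the comparison is between the same driver with and without the Notch construct.

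In the fly, Dpp and Gbb are secreted BMP ligands that bind the type I receptors Tkv and Sax together with the type II receptor Put. The receptors phosphorylate Mad, which joins Med, enters the nucleus and, with the zinc finger protein Shn, shuts off brk, a repressor of BMP target genes. Dad is an inhibitory Smad that is itself switched on by the pathway and feeds back on it. In the midgut the pathway is known for roles in stem cell maintenance and in the identity of the acid-secreting copper cells.

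Total counts ran from 24192918 to 38237532 per library, and ribosomal RNA genes took 10.03% to 18.9% of them. Notch itself stood at 195.9, 194.5 and 195.0 counts scaled to library size (counts per 1e+06, CPM) on average in germ-free, L. brevis and L. plantarum controls and at 66.1, 78.0 and 59.2 CPM in the matching Notch RNAi groups, with every Notch RNAi library below every control. Of 6 progenitor markers listed, 5 were matched by identifier to the count table. The identifier used for esg had no match there, and esg was not analysed. The summed level of the 5 was 719 to 883 CPM in controls and 406 to 605 CPM in Notch RNAi libraries. That sum includes Notch, the target of the knockdown. On average Notch, Sox21a and klu were lower in the Notch RNAi groups, and Delta and spdo were higher. The sum is therefore not a measure of progenitor content. RNA of other midgut cells was also present, with 6 enterocyte markers summing to 4928 to 18530 CPM and 6 enteroendocrine markers to 2595 to 5340 CPM. L. brevis control sample 3 stood apart in 8 visceral muscle markers, which summed to 633 CPM there and to 15.9 to 144.2 CPM in the other libraries. Values without that library are given beside some of the results with L. brevis controls.

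Compared per kilobase of exon, so that long and short transcripts can be set side by side, Mad had the highest level of the 9 genes, with group means of 33.8 to 67.8 CPM per kilobase. The ligand gbb followed at 22.8 to 31.0 CPM per kilobase. The receptors put, sax and tkv came next, with group means of 15.1 to 22.2, 14.9 to 22.1 and 11.8 to 16.5 CPM per kilobase. The repressor brk had 6.81 to 12.9, Dad 7.40 to 9.04 and shn 4.59 to 7.17 CPM per kilobase. The ligand dpp was far below the rest at 0.0448 to 0.153 CPM per kilobase.

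In all 17 libraries Mad lay above gbb, gbb above put, tkv above brk and shn above dpp on this scale. The order of put and sax was not settled, since put was the higher in 8 of 17 libraries, and brk lay above Dad in 12 of 17. Of the neighbouring pairs, shn and dpp were the only pair whose ranges over all libraries did not meet. Among all tested genes, Mad ranked between the 80.0th and the 89.0th percentile per kilobase across the 6 groups, gbb between the 72.9th and the 77.9th, and dpp between the 3.16th and the 6.16th.

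**Figure D1:**
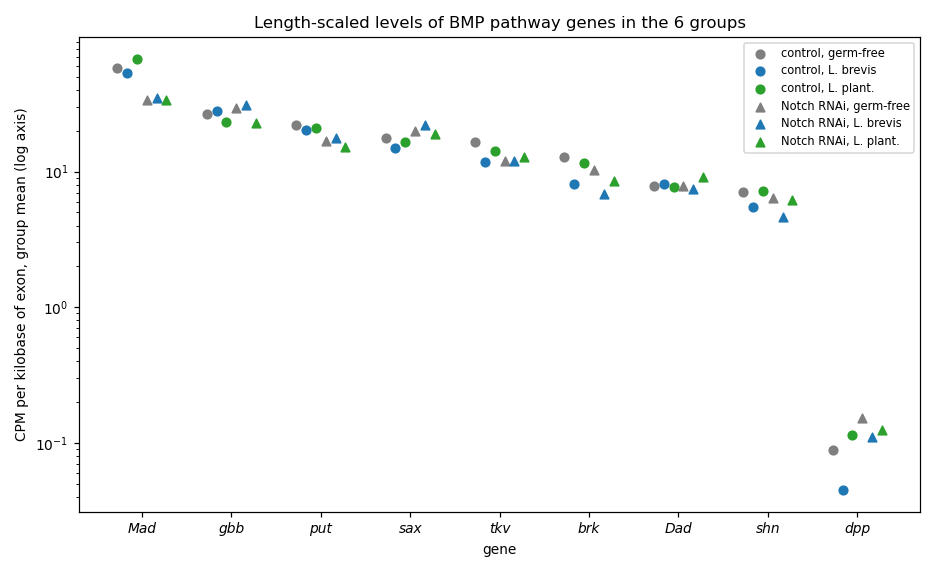
Group mean of each BMP gene in CPM per kilobase of exon on a log axis, with 1 point per group. Colours give the microbial condition, with circles for control and triangles for Notch RNAi progenitors. Mad lies above every other gene in each group and dpp lies below all others, while put and sax share nearly the same range.

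The comparison of Notch RNAi with control progenitors asks how these genes stand after loss of Notch, here as the mean of the 3 microbial conditions. Of the 9 genes, 6 passed an adjusted p of 0.05 in edgeR's quasi-likelihood test over all genes, against 56.6% of the 11786 genes tested. Mad, put, brk, shn and tkv were lower in Notch RNAi progenitors, while 26.9% of all genes were called lower. The type I receptor gene sax was the single member called higher, beside 29.6% of all genes. The median log2 fold change was -0.19 over the 9 genes and 0.02 over all tested genes. The count of members called in either direction is thus close to the background. The share called lower, 5 of 9, was above that of all genes, and this difference was not tested. The sizes and directions of single genes follow.

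**Figure D2:**
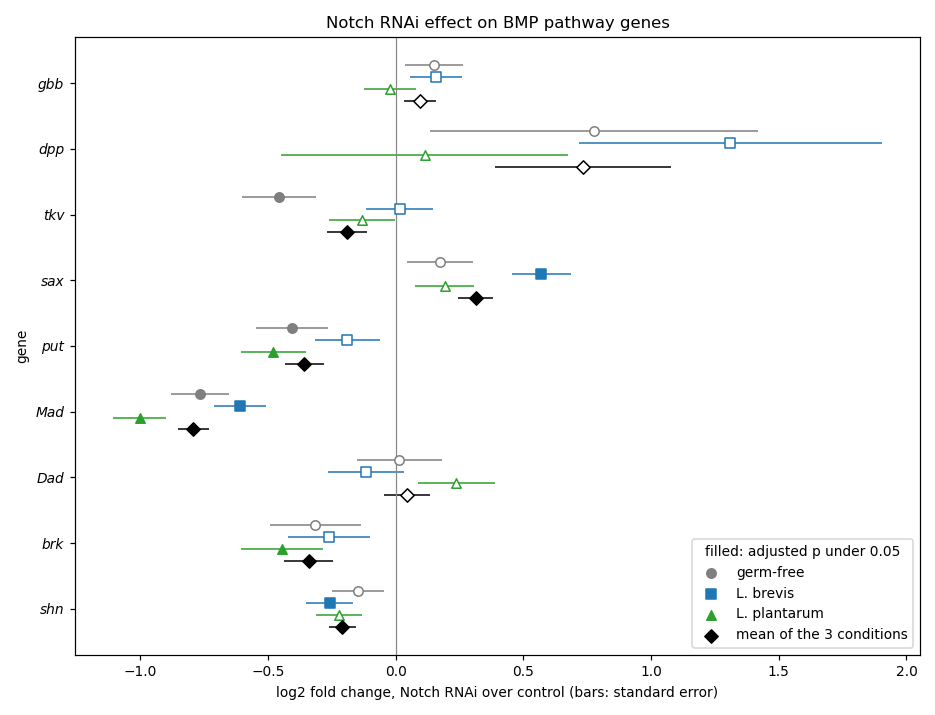
Log2 fold change of Notch RNAi against control for each BMP gene, for germ-free, L. brevis and L. plantarum flies and for their mean, with bars of 1 standard error and filled symbols at an adjusted p under 0.05. Mad is the lowest in every condition and sax lies above 0 in every condition, while dpp has the widest bars.

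The ligand dpp (FBgn0000490; 2L:2428372-2459823, plus strand, assembly BDGP6) was close to the floor of detection. In germ-free flies, dpp had 15 and 11 counts in controls and 17, 31 and 32 in Notch RNAi samples. With L. brevis, dpp had 14, 3 and 4 counts in controls and 13, 21 and 32 in Notch RNAi samples. With L. plantarum, dpp had 13, 24 and 8 counts in controls and 20, 16 and 29 in Notch RNAi samples. The groups overlapped in both bacterial conditions and were apart only in germ-free flies.

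The mean log2 fold change of dpp was 0.73 (SE 0.35, adjusted p = 0.0826), and with L. brevis it was 1.31 (SE 0.59, adjusted p = 0.0879). Neither passed the threshold. The mean passed without L. brevis control sample 1 (log2 fold change 1.07, adjusted p = 0.0106) or L. plantarum control sample 2 (0.93, adjusted p = 0.0320), and the L. brevis value passed without L. brevis control sample 1 (2.31, adjusted p = 0.00974). Without L. brevis control sample 3 the L. brevis value was 1.02 (adjusted p = 0.233). At 3 to 32 counts per library, dpp does not allow a firm statement in either direction. L. brevis control sample 3, the library with the highest sum of the visceral muscle markers, held 4 dpp counts. Whether muscle RNA contributes to the dpp counts was not tested.

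The second ligand, gbb (FBgn0024234; 2R:23851562-23853247, plus strand), was well measured and was not called between genotypes. In germ-free flies, gbb stood at 46.7 and 43.2 CPM in controls and 54.6, 46.9 and 48.3 CPM in Notch RNAi samples. With L. brevis, gbb stood at 50.8, 46.4 and 43.4 CPM in controls and 56.5, 53.0 and 47.2 CPM in Notch RNAi samples. With L. plantarum, gbb stood at 44.3, 35.96 and 37.0 CPM in controls and 36.9, 39.1 and 39.6 CPM in Notch RNAi samples. The lowest value in each genotype came from an L. plantarum library. For gbb the mean log2 fold change of Notch RNAi was 0.10 (SE 0.06, adjusted p = 0.201).

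Among the receptors, sax rose and put fell. The type I receptor gene sax (FBgn0003317; 2R:7806484-7810067, plus strand) had 46.0 and 55.8 CPM in germ-free controls and 64.8, 54.3 and 53.2 CPM in germ-free Notch RNAi samples, which overlap. With L. brevis, sax had 41.8, 43.7 and 42.4 CPM in controls and 66.4, 70.7 and 52.8 CPM in Notch RNAi samples. With L. plantarum, sax had 42.7, 50.02 and 49.9 CPM in controls and 53.4, 55.0 and 54.5 CPM in Notch RNAi samples. In both bacterial conditions every Notch RNAi library was above every control.

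The mean log2 fold change of sax was 0.31 (SE 0.07, adjusted p = 0.00112), a 1.24-fold rise. Within conditions it passed the threshold with L. brevis, at 0.57 (SE 0.12, adjusted p = 0.000892), and at 0.57 without L. brevis control sample 3 (adjusted p = 0.00374). In germ-free flies the value was 0.18 (SE 0.13, adjusted p = 0.324) and with L. plantarum 0.19 (SE 0.12, adjusted p = 0.222), neither of them called. A test of the difference between L. brevis and germ-free gave 0.40 (SE 0.17, adjusted p = 0.280), so the rise was not shown to differ between them.

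The type II receptor gene put (FBgn0003169; 3R:14619030-14625703, minus strand) went the other way. In germ-free flies, put stood at 79.3 and 98.9 CPM in controls and 73.5, 68.2 and 60.1 CPM in Notch RNAi samples. With L. brevis, put stood at 79.5, 80.4 and 83.8 CPM in controls and 71.8, 83.1 and 58.8 CPM in Notch RNAi samples. With L. plantarum, put stood at 95.6, 82.1 and 75.5 CPM in controls and 58.3, 65.0 and 58.3 CPM in Notch RNAi samples. The groups were apart in germ-free and L. plantarum flies and overlapped with L. brevis.

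The mean log2 fold change of put was -0.36 (SE 0.08, adjusted p = 0.000805), a 1.28-fold fall. It was -0.48 with L. plantarum (SE 0.13, adjusted p = 0.00824), -0.41 in germ-free flies (SE 0.14, adjusted p = 0.0378) and -0.19 with L. brevis (SE 0.13, adjusted p = 0.248). The germ-free call ended without germ-free control sample 2 (-0.24, adjusted p = 0.368), Notch RNAi sample 2 (-0.46, adjusted p = 0.0512) or Notch RNAi sample 3 (-0.33, adjusted p = 0.130).

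The main Dpp receptor gene, tkv (FBgn0003716; 2L:5219000-5271384, minus strand), gave the weakest of the 6 calls. In germ-free flies, tkv stood at 73.0 and 73.7 CPM in controls and 58.1, 53.5 and 48.6 CPM in Notch RNAi samples. With L. brevis, tkv stood at 45.0, 57.1 and 55.4 CPM in controls and 48.4, 60.5 and 50.2 CPM in Notch RNAi samples. With L. plantarum, tkv stood at 49.3, 69.5 and 68.1 CPM in controls and 58.8, 55.2 and 56.5 CPM in Notch RNAi samples. Only the germ-free groups were apart, and the germ-free controls hold the highest tkv levels of the series.

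The germ-free log2 fold change of tkv was -0.46 (SE 0.14, adjusted p = 0.0239), and the call ended without germ-free control sample 1 (adjusted p = 0.0946), control sample 2 (adjusted p = 0.106) or Notch RNAi sample 3 (adjusted p = 0.0849). The mean over conditions was -0.19 (SE 0.08, adjusted p = 0.0471). That mean call ended on leaving out any library other than germ-free Notch RNAi samples 1 and 2, L. brevis control sample 1, L. brevis Notch RNAi sample 2 and L. plantarum control sample 1, with adjusted p up to 0.0966, and 0.0788 without L. brevis control sample 3. With no filter on low counts it also ended (adjusted p = 0.0562), leaving 5 of 9 members called. With L. brevis the value was 0.02 (SE 0.13, adjusted p = 0.941). Of the 4433 exon bases of tkv, 212 are shared with genes on the opposite strand, and the use of strand in counting is not given in the sources used here.

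Mad (FBgn0011648; 2L:3146056-3159643, minus strand), the transcription factor that receptors activate, showed the clearest change of the pathway. In germ-free flies, Mad stood at 191 and 202 CPM in controls and 123, 111 and 113 CPM in Notch RNAi samples. With L. brevis, Mad stood at 176, 196 and 173 CPM in controls and 119, 138 and 101 CPM in Notch RNAi samples. With L. plantarum, Mad stood at 228, 222 and 243 CPM in controls and 112, 109 and 125 CPM in Notch RNAi samples. The highest Notch RNAi library of the series lay below the lowest control. Separation within each of the 3 conditions, in a single direction, was seen for 27.7% of the genes tested. The share for separation over the whole series was not computed.

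Group means of Mad were 196.6 ± 7.5 CPM (SD, n = 2), 181.9 ± 12.5 and 231.2 ± 11.02 (SD, n = 3 each) in germ-free, L. brevis and L. plantarum controls. The matching Notch RNAi means were 115.6 ± 6.5, 119.1 ± 18.4 and 115.3 ± 8.5 CPM (SD, n = 3 each). The Notch RNAi means lay closer to each other than the control means did. The mean log2 fold change was -0.79 (SE 0.06, adjusted p = 1.93e-08), a 1.73-fold fall. By condition it was -0.77 in germ-free flies (SE 0.11, adjusted p = 9.86e-05), -0.61 with L. brevis (SE 0.10, adjusted p = 0.000178, and -0.65 without L. brevis control sample 3) and -1.003 with L. plantarum (SE 0.10, adjusted p = 2.24e-06). Each of these calls held under every alternative and every left-out library, with adjusted p of at most 0.00457.

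In bulk RNA of sorted cells, fewer cells of a type and less RNA per cell cannot be told apart. Beside the fall of Mad, 2 of the 5 measured progenitor markers rose (Delta and spdo) and 3 fell (N, Sox21a and klu). The enteroblast gene klu averaged 227.8 to 257.3 CPM in control groups and 8.49 to 12.6 CPM in Notch RNAi groups. Of 6 enterocyte markers, 4 were called lower in the mean comparison, and of 6 enteroendocrine markers 3 were called higher and 2 lower. Of 6 tracheal markers, 4 were tested and 2 were called lower. The 6 summed to 9.34 to 18.3 CPM in controls and 3.81 to 6.47 CPM in Notch RNAi libraries. The highest of them was btl, at group means of 9.03 to 12.2 CPM in controls and 2.52 to 2.71 CPM with Notch RNAi. Group means of sv were 1.101 to 1.454 CPM in controls and 0.2734 to 0.3905 CPM with Notch RNAi. Those of serp overlapped, at 1.439 to 2.071 CPM in controls and 1.336 to 2.419 CPM with Notch RNAi. The marker trh stayed at or under 0.1953 CPM in every library. Haemocyte markers summed to 18.02 to 39.7 CPM, with He, NimC1, eater or Hml at 0 in all libraries of some groups. The part of these cell types in the results on BMP genes was not tested.

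**Figure D3:**
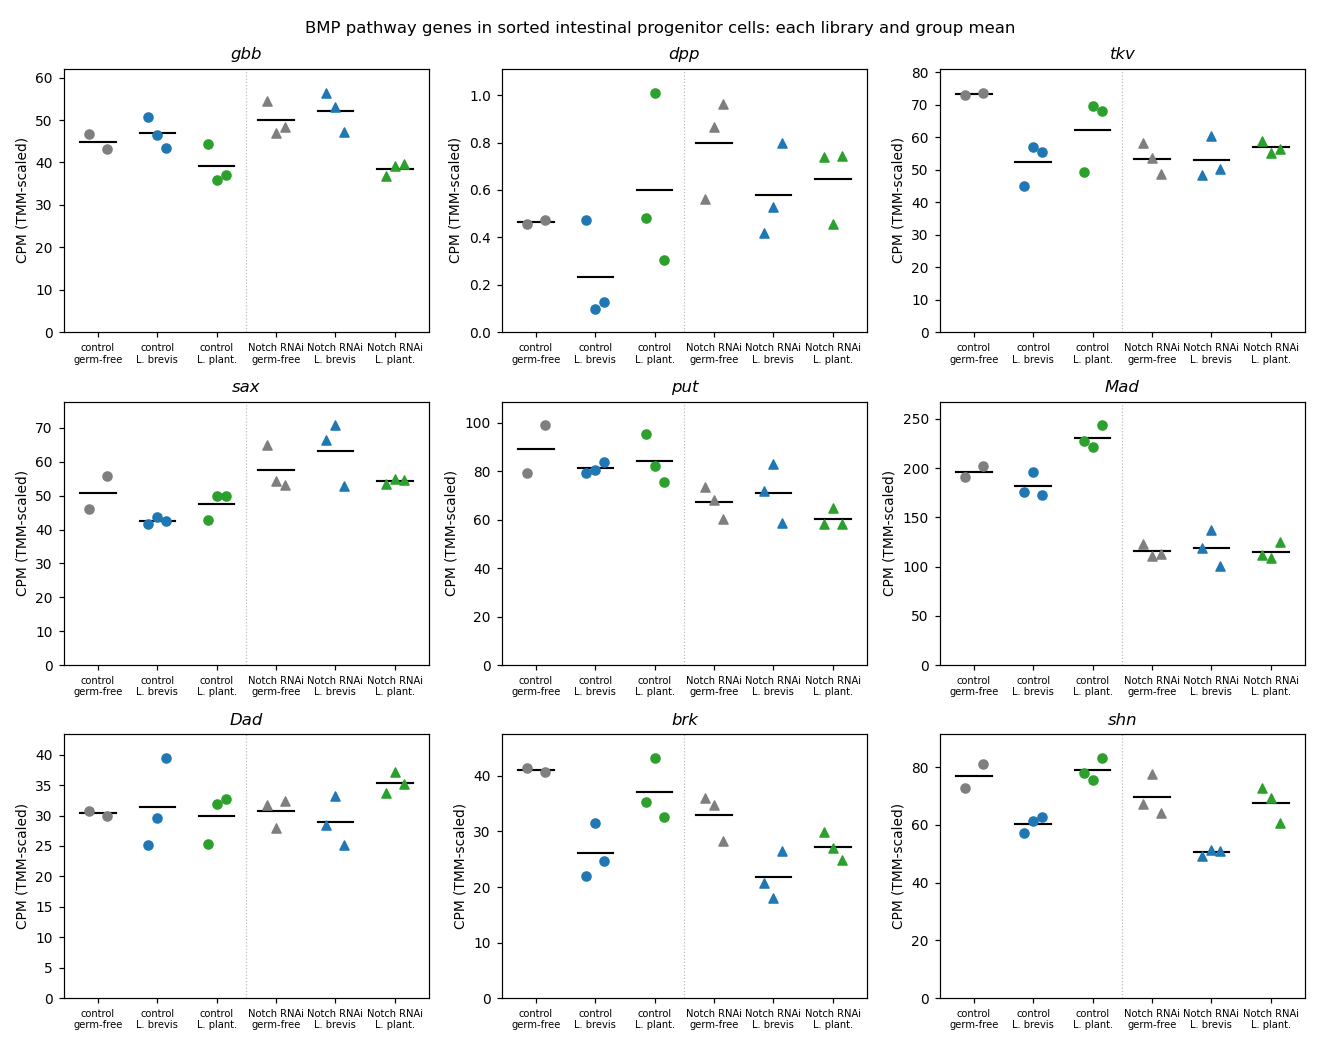
TMM-scaled CPM of each of the 9 BMP genes, with 1 point per library and the group mean as a bar, for the 6 groups along each axis. Every Notch RNAi library of Mad lies below every control, brk and shn are lowest in the L. brevis groups, and the Dad groups largely overlap.

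The feedback inhibitor Dad (FBgn0020493; 3R:17054007-17070408, plus strand) was not called in any comparison of genotypes. In germ-free flies, Dad stood at 30.8 and 30.0 CPM in controls and 31.7, 28.0 and 32.4 CPM in Notch RNAi samples. With L. brevis, Dad stood at 25.1, 29.5 and 39.4 CPM in controls and 28.5, 33.2 and 25.1 CPM in Notch RNAi samples. With L. plantarum, Dad stood at 25.3, 31.9 and 32.7 CPM in controls and 33.7, 37.1 and 35.1 CPM in Notch RNAi samples. The groups overlapped except with L. plantarum, where every Notch RNAi library was the higher.

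For Dad the mean log2 fold change was 0.05 (SE 0.09, adjusted p = 0.696), beside the fall of 0.79 for Mad. With L. plantarum it was 0.24 (SE 0.15, adjusted p = 0.248), and this did not pass the threshold. Its highest value, 39.4 CPM, came from L. brevis control sample 3, and the L. brevis value was -0.12 with that library and 0.08 without it, called in neither case.

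The repressor brk (FBgn0024250; X:7307939-7311132, plus strand) fell modestly. In germ-free flies, brk stood at 41.4 and 40.8 CPM in controls and 36.1, 34.7 and 28.2 CPM in Notch RNAi samples. With L. brevis, brk stood at 22.0, 31.6 and 24.7 CPM in controls and 20.8, 18.02 and 26.5 CPM in Notch RNAi samples. With L. plantarum, brk stood at 35.4, 43.2 and 32.7 CPM in controls and 29.9, 27.1 and 24.8 CPM in Notch RNAi samples. The genotypes were apart in germ-free and L. plantarum flies and overlapped with L. brevis.

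Over the 3 conditions, brk had a mean log2 fold change of -0.34 (SE 0.10, adjusted p = 0.00679), a 1.27-fold fall. Within conditions brk passed only with L. plantarum, at -0.44 (SE 0.16, adjusted p = 0.0442), against -0.32 in germ-free flies (adjusted p = 0.194) and -0.26 with L. brevis (adjusted p = 0.209). The L. plantarum call ended without L. plantarum control sample 1 (adjusted p = 0.0598), control sample 2 (-0.32, adjusted p = 0.185), Notch RNAi sample 2 (adjusted p = 0.0982) or Notch RNAi sample 3 (adjusted p = 0.147).

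The cofactor shn (FBgn0003396; 2R:11159086-11217394, plus strand) also fell in the mean comparison. In germ-free flies, shn stood at 73.0 and 81.3 CPM in controls and 67.3, 77.6 and 64.0 CPM in Notch RNAi samples. With L. brevis, shn stood at 57.3, 61.3 and 62.8 CPM in controls and 49.3, 51.5 and 50.8 CPM in Notch RNAi samples. With L. plantarum, shn stood at 77.9, 75.7 and 83.1 CPM in controls and 72.9, 69.3 and 60.8 CPM in Notch RNAi samples. Both bacterial conditions separated the genotypes, and the germ-free groups overlapped.

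Averaged over conditions, the log2 fold change of shn was -0.21 (SE 0.05, adjusted p = 0.00374), a 1.16-fold fall. With L. brevis it was -0.26 (SE 0.09, adjusted p = 0.0307), with L. plantarum -0.22 (SE 0.09, adjusted p = 0.0716) and in germ-free flies -0.15 (SE 0.10, adjusted p = 0.289). The L. brevis call held without L. brevis control sample 1 and ended without control sample 2 (adjusted p = 0.0764), control sample 3 (0.0878), or Notch RNAi samples 1 (0.0883), 2 (0.0571) or 3 (0.0596). Without L. plantarum Notch RNAi sample 1 the L. plantarum value passed (-0.28, adjusted p = 0.0464).

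By condition, the same number of members was called each time. In germ-free flies 3 of 9 were called (tkv, put and Mad, all lower), where 32.2% of all genes were called and 14.7% were called lower. With L. brevis 3 of 9 were called (sax higher, Mad and shn lower), where 42.6% of all genes were called (22.3% as higher, 20.3% as lower). With L. plantarum 3 of 9 were called (put, Mad and brk, all lower), where 33.8% of all genes were called and 16.2% were called lower. The shares called in either direction are near the background. In germ-free flies and with L. plantarum the share called lower was above that of all genes, and this difference was not tested. Mad was the member called in all 3. The genotypes did not overlap for 6 of 9 members in germ-free flies, 3 of 9 with L. brevis and 6 of 9 with L. plantarum, beside 61.1%, 51.4% and 45.4% of all genes.

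Whether the Notch RNAi effect on a member differed between conditions was tested directly, as the difference of the effects. No member was called by edgeR's quasi-likelihood test or by DESeq2 in any of the 3 pairs of conditions. Between L. brevis and germ-free flies 94 genes in all were called (0.798%). At an unadjusted p under 0.05 there were 2 of 9 members, beside 1818 of the 11786 genes tested. Those members were tkv, whose effect differed by 0.47 (SE 0.20, adjusted p = 0.260), and sax, by 0.40. Between L. brevis and L. plantarum 2 genes in all were called (0.017%). At an unadjusted p under 0.05 there were 2 of 9 members, beside 1107 of the 11786 genes tested. These members were Mad, whose effect differed by 0.39 (SE 0.14, adjusted p = 0.439), and sax, by 0.38 (adjusted p = 0.501). Between L. plantarum and germ-free flies 3 genes were called (0.0255%). There 0 members had an unadjusted p under 0.05, beside 1427 of the 11786 genes tested.

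The gut bacteria were compared within each genotype, which asks how the microbial state alters progenitor transcripts. Between L. brevis and germ-free flies the repressor brk and the cofactor shn, which acts on brk, were lower with L. brevis in both genotypes. Between L. brevis and L. plantarum shn was again lower in both genotypes, gbb was higher in Notch RNAi progenitors, and brk was called in neither. In Notch RNAi progenitors 2 of 9 members were called between L. brevis and germ-free flies, where 9.36% of all genes were called and 4.49% were called lower. The values of brk were 20.8, 18.02 and 26.5 CPM with L. brevis against 36.1, 34.7 and 28.2 CPM germ-free, with no overlap. The values of shn were 49.3, 51.5 and 50.8 CPM against 67.3, 77.6 and 64.0 CPM, again with no overlap. These were the 2 members of 9 whose groups were apart, beside 34.0% of all genes.

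For brk in Notch RNAi progenitors the log2 fold change of L. brevis against germ-free was -0.60 (SE 0.16, adjusted p = 0.0300), a 1.52-fold difference. That call ended without germ-free Notch RNAi sample 1 (adjusted p = 0.108) or 2 (0.119), or L. brevis Notch RNAi sample 1 (0.0946) or 2 (0.139). For shn it was -0.46 (SE 0.09, adjusted p = 0.00660), and the call ended without germ-free Notch RNAi sample 2 (-0.37, adjusted p = 0.0568). Of the other 7 members, sax had the lowest adjusted p in that comparison, 0.4855.

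In control progenitors L. brevis against germ-free again called 2 of 9 members, brk and shn, where 7.97% of all genes were called and 2.95% were called lower. The controls gave brk 22.0, 31.6 and 24.7 CPM with L. brevis against 41.4 and 40.8 CPM germ-free. They gave shn 57.3, 61.3 and 62.8 CPM against 73.0 and 81.3 CPM. Neither gene overlapped between the groups, and the same held for 4 of 9 members in all and for 40.2% of all genes.

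The control log2 fold change was -0.66 for brk (SE 0.18, adjusted p = 0.0360) and -0.35 for shn (SE 0.10, adjusted p = 0.0444). The brk call ended without germ-free control sample 1 (adjusted p = 0.140) or 2 (0.182), or L. brevis control sample 1 (0.129) or 3 (0.0662). The shn call ended without germ-free control sample 1 (adjusted p = 0.0889) or 2 (-0.27, adjusted p = 0.324), or L. brevis control sample 1 (0.139) or 2 (0.0753). With only 2 germ-free controls, both calls ended on leaving out either of them. A fit on the compared groups alone also ended both (adjusted p = 0.135 for brk and 0.155 for shn), and a fit without the low-count filter ended that of shn (0.0631), with folds of nearly the same size. The receptor gene tkv was also lower, at -0.48 (SE 0.14), with an adjusted p of 0.0518 that DESeq2 put at 0.0258.

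Against L. plantarum, L. brevis called 2 of 9 members in Notch RNAi progenitors, where 14.4% of all genes were called, 7.36% higher and 7.0% lower. The groups were apart for 3 of 9 members and 37.3% of all genes. The cofactor shn was lower at -0.42 (SE 0.09, adjusted p = 0.0108), and the call ended without L. plantarum Notch RNAi sample 2 (adjusted p = 0.0570). The ligand gbb was higher with L. brevis, with 56.5, 53.0 and 47.2 CPM against 36.9, 39.1 and 39.6 CPM. Its log2 fold change was 0.44 (SE 0.10, adjusted p = 0.0154), and the call ended without L. brevis Notch RNAi sample 1 (adjusted p = 0.0552) or 2 (0.0581), or L. plantarum Notch RNAi sample 1 (0.0529) or 2 (0.0619).

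In controls the same comparison of L. brevis with L. plantarum called 1 of 9 members, shn, where 2.81% of all genes were called and 1.83% were called lower. The groups were apart for 3 of 9 members and 20.3% of all genes. For shn the log2 fold change was -0.38 (SE 0.09, adjusted p = 0.0377), and the call ended without L. brevis control sample 1 (adjusted p = 0.145) or 2 (0.0753), or L. plantarum control sample 2 (0.0972) or 3 (0.169). Mad was at -0.35 (SE 0.10, adjusted p = 0.0723) and brk at -0.51 (SE 0.16, adjusted p = 0.0952). Both groups of Mad and of brk were apart, and DESeq2 called both, with adjusted p of 0.0261 and 0.0406. Without L. plantarum control sample 1, gbb (0.36, adjusted p = 0.0378) and tkv (-0.39, adjusted p = 0.0443) passed as well.

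L. plantarum against germ-free called 0 of 9 members in either genotype. Few genes of any kind were called in edgeR's test, 16 in Notch RNAi progenitors (0.136%) and 19 in controls (0.161%). By DESeq2 0 members were called in either. At an unadjusted p under 0.05 there was 1 member in Notch RNAi progenitors, beside 1250 of the 11786 genes tested. In controls there were 0 members, beside 1709 genes. The 1 member was gbb, which stood at 36.9, 39.1 and 39.6 CPM with L. plantarum and at 54.6, 46.9 and 48.3 CPM germ-free. Its log2 fold change was -0.37 (SE 0.10, adjusted p = 0.198), with no overlap between the groups. Groups were apart for 2 of 9 members in each genotype, beside 19.6% of all genes in Notch RNAi progenitors and 31.1% in controls.

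The bacterial comparisons within a genotype share libraries, and so do those between genotypes that use the same groups. They are set side by side here and do not count as separate evidence. Ribosomal RNA genes took 18.5% to 18.9% of counts in germ-free controls, and 12.9% to 15.4% in L. brevis controls. With the ribosomal RNA genes left out, brk and shn were still called between L. brevis and germ-free flies, unlike in the fits that ended the control calls above. Leaving them out moved the median of all genes by at most 0.036 on the log2 scale. Whether differences between libraries that go with the ribosomal RNA share play a part was not tested.

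**Figure D4:**
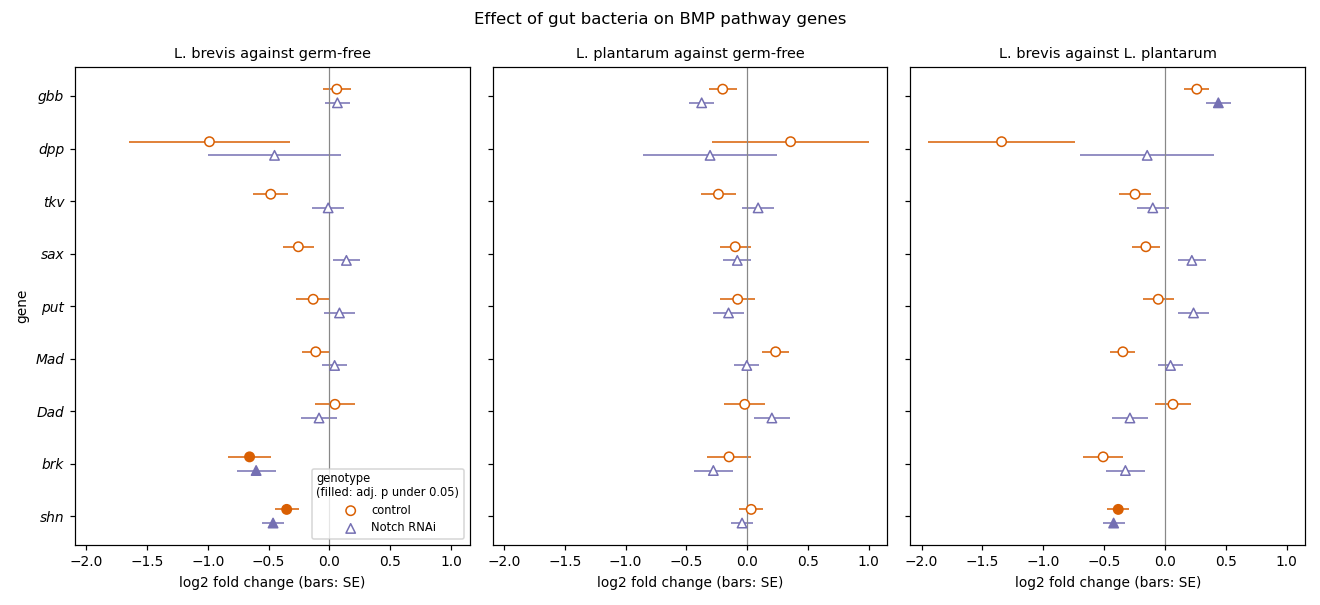
Log2 fold change of each BMP gene between microbial conditions, with bars of 1 standard error, circles for control and triangles for Notch RNAi progenitors, and filled symbols at an adjusted p under 0.05. The genes brk and shn lie left of 0 with L. brevis in both genotypes, and the panel of L. plantarum against germ-free has no filled symbol.

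Beyond the core, 30 further genes of BMP and related signalling were listed, of which 27 were tested. In the mean Notch RNAi comparison 6 were called higher and 8 lower, and 13 were not called. Over all genes 56.6% were called, 29.6% higher and 26.9% lower, so these counts are near the background. Of 4 tested ligands of the wider family, 1 was higher and 1 lower. Activin ligand Actbeta rose by 0.38 on the log2 scale (SE 0.13, adjusted p = 0.0176), a call that ended without germ-free Notch RNAi sample 2 (0.31, adjusted p = 0.0597). The ligand myo fell by 0.42 (SE 0.08, adjusted p = 0.000212). Of 3 receptor and Smad genes 1 was lower, Smox, the Smad of the Activin branch, by 0.25 (SE 0.06, adjusted p = 0.00258).

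Extracellular modulators held the largest called fall of the wider lists, that of magu, with 2 of 10 tested called higher and 4 lower. The gene magu, which encodes a secreted protein that modulates Dpp spread in the wing, stood at 24.8 and 26.4 CPM in germ-free controls and 10.5, 13.2 and 10.2 CPM in germ-free Notch RNAi samples. With L. brevis magu stood at 24.7, 17.95 and 22.2 CPM in controls and 9.17, 8.38 and 7.17 CPM in Notch RNAi samples. With L. plantarum magu stood at 26.4, 24.8 and 17.3 CPM in controls and 8.53, 9.06 and 6.68 CPM in Notch RNAi samples. The genotypes did not overlap in any condition, and the mean log2 fold change was -1.36 (SE 0.11, adjusted p = 2.81e-08), a 2.56-fold fall.

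The glypicans, cell-surface carriers of BMP ligands, fell together. The glypican gene dlp was lower by 0.65 on the log2 scale (adjusted p = 2.56e-06), with no overlap in any condition, and dally fell by 0.34 (adjusted p = 0.00170). Fs, the follistatin gene, fell by 0.63 (adjusted p = 0.00156). The modulator cv rose by 0.23 (adjusted p = 0.00721). The protease gene tok was also called higher (adjusted p = 0.0335), on 0 to 37 counts per library. Its log2 fold change was 1.52, and 2.97 without L. brevis control sample 3 (adjusted p = 0.00172). The tok call ended without germ-free Notch RNAi sample 1 or L. brevis control sample 1 or 2. It also ended without L. brevis Notch RNAi sample 1, L. plantarum control sample 1 or L. plantarum Notch RNAi sample 3. Adjusted p in those fits was 0.0520 to 0.0936. With a lone germ-free control, sample 1, the log2 fold change was 1.26.

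Of 4 intracellular regulators tested, 1 was higher and 1 lower. The kinase gene nmo rose by 0.37 (SE 0.06, adjusted p = 9.68e-05), and the corepressor gene Snoo fell by 0.39 (SE 0.11, adjusted p = 0.00512). Of 6 genes known as BMP targets in other tissues, 2 were called higher and 1 lower. The higher genes, vg and ltl, had only 0 to 33 and 0 to 21 counts per library. The lower gene was lab, a homeobox gene of the copper cell region, at -0.89 (SE 0.09, adjusted p = 2.48e-07).

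The values of lab were 43.7 and 37.9 CPM in germ-free controls and 27.4, 29.3 and 31.9 CPM in germ-free Notch RNAi samples. With L. brevis lab had 49.1, 43.6 and 54.9 CPM in controls and 15.9, 16.1 and 18.4 CPM in Notch RNAi samples. With L. plantarum lab had 39.1, 45.3 and 46.1 CPM in controls and 21.4, 33.8 and 27.1 CPM in Notch RNAi samples. Every Notch RNAi library lay below every control, by the widest margin with L. brevis. The log2 fold change was -0.47 in germ-free flies (adjusted p = 0.0332), -1.55 with L. brevis (adjusted p = 5.93e-07) and -0.66 with L. plantarum (adjusted p = 0.00197). Without L. brevis control sample 3 the L. brevis value was -1.47 (adjusted p = 4.34e-06). The germ-free call ended without control sample 1 (adjusted p = 0.236) or 2 (0.0580), or Notch RNAi sample 1 (0.0960) or 2 (0.0515).

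**Figure D5:**
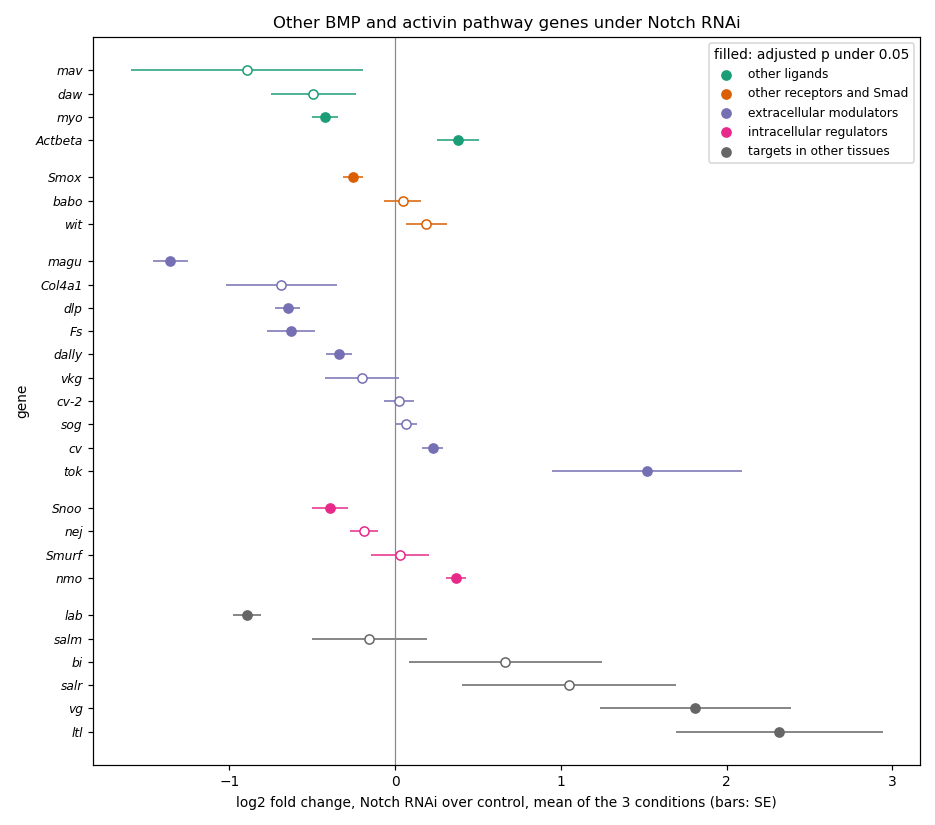
Log2 fold change of Notch RNAi against control, as the mean of the 3 conditions with bars of 1 standard error, for the 27 tested genes of the wider lists, grouped by list, with filled symbols at an adjusted p under 0.05. The secreted modulator magu and the homeobox gene lab are the lowest of the precisely measured genes, and the widest bars belong to genes with few counts.

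The 5 tested genes whose log2 CPM followed that of Dad most closely over the 17 libraries were aux (Pearson r = 0.882), asRNA:CR44115 (0.845), EndoA (0.841), Sec24CD (0.835) and shtd (0.833). These are descriptions over libraries that share groups and scaling, and the level of the antisense gene asRNA:CR44115 is uncertain where counting did not use strand. No BMP pathway member or wider-list gene was among them.

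The authors' deposited tables give their own log2 fold changes and false discovery rates (FDR) for 8 of the comparisons. For Mad in Notch RNAi against control, the authors' deposited table lists -0.77 in germ-free flies (FDR 6.3e-07), -0.62 with L. brevis (FDR 9.56e-06) and -1.0023 with L. plantarum (FDR 2.55e-13). For dpp with L. brevis the authors' deposited table lists 1.31 with an FDR of 0.0462, under 0.05 where the test above gave an adjusted p of 0.0879. For shn between L. brevis and L. plantarum controls the authors' deposited table lists -0.39 with an FDR of 0.0229.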

How the data were processed

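RNA-seq read counts per gene were deposited by the authors as whole numbers for 17 libraries and 17737 genes. Per the submitters' processing notes, FastQC, Trimmomatic, HISAT2, SAMtools and edgeR were used. The counting tool, strand setting and genome build are not given in the sources used here. The log2 fold changes and p-values in 8 comparison tables are the authors' own and were deposited with the counts. Symbols came from a name table that matched 17599 identifiers. Exon lengths and positions were taken from Ensembl's BDGP6 gene models.

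Tests on these counts used edgeR 4.0.16 in R 4.3.3. The filterByExpr filter kept 11786 genes, carrying 99.98% of counts, and libraries were scaled by trimmed mean of M-values (TMM). A single quasi-likelihood fit with robust estimation held a mean per group over all 17 libraries, and contrasts were adjusted by Benjamini-Hochberg over all genes tested, with calls at 0.05. Standard errors (SE) came from the fold change and F statistic. CPM scales a library to 1e+06 counts. The common biological coefficient of variation was 0.230. Replicate libraries differed by more than sampling noise (chi-square per degree of freedom 27.9 to 212.7), so none was counted as a copy. The same steps were tested on simulated counts. Alternatives were DESeq2 1.42.0, other scaling and filters, ribosomal RNA genes left out, a replicate block, the compared groups only, and each library left out.

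The text names every member, and from the wider lists those called in the mean Notch RNAi comparison. The genes cv-2 and wit, not called there, were added after their values in other comparisons were seen. Members and lists were chosen with earlier results of these data known.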

Additional observations from a re-analysis of the deposited data

Results flagged for a closer look

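For the homeobox gene lab, the Notch RNAi effect passed the test of a difference between microbial conditions, on a call that single libraries decide. The difference of the log2 fold changes, L. brevis minus germ-free, was -1.09 (SE 0.22, adjusted p = 0.0304 in edgeR's quasi-likelihood test), with lab lower in all 3 Notch RNAi libraries than in any control in both conditions. The call ended without germ-free control sample 1 (adjusted p = 0.115) or 2 (0.129), germ-free Notch RNAi sample 2 (0.0979) or 3 (0.0773), L. brevis control sample 1 (0.0615) or 3 (0.0646), or L. brevis Notch RNAi sample 1 (0.0794) or 2 (0.0842), with differences of -1.197 to -0.988. The BMP-binding protein gene cv-2 moved in opposite directions in 2 conditions. It had 80.3 and 100.6 CPM in germ-free controls and 73.5, 71.9 and 68.8 CPM in germ-free Notch RNAi samples, against 42.5, 41.3 and 45.8 CPM in L. brevis controls and 60.4, 45.9 and 58.7 CPM in L. brevis Notch RNAi samples. The difference between those effects was 0.69 (SE 0.23, adjusted p = 0.164), which did not pass the threshold. The wing selector gene vg had opposite differences between L. plantarum and germ-free flies in the genotypes. It had 5 and 5 counts in germ-free controls, 1, 1 and 3 in L. plantarum controls, 7, 14 and 8 in germ-free Notch RNAi samples and 19, 28 and 33 in L. plantarum Notch RNAi samples. The fitted difference of 2.86 (SE 1.398, adjusted p = 0.427) did not pass and depends on the prior count at these levels.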

How the results depend on the processing

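Of 2146 alternative values of single genes, 1983 kept their direction and side of the threshold, 85 lost a call, 11 gained one and 67 changed sign, none of them a called value. Only a value called in the main fit can lose a call, so the losses are a larger share of the called values. The alternatives for lab by condition, cv-2, wit and vg were chosen after seeing the data. The alternative scaling moved the median of all genes by at most 0.023 on the log2 scale, and fits on the compared groups only by at most 0.042. DESeq2 called more genes than edgeR between L. brevis and germ-free flies (1670 against 1103 in Notch RNAi progenitors, 1446 against 939 in controls), between L. plantarum and germ-free flies (142 against 16, and 316 against 19), between L. brevis and L. plantarum controls (848 against 331, with 3 members against 1) and for differences of the Notch RNAi effects (434 against 94 for L. brevis minus germ-free, 148 against 3 for L. plantarum minus germ-free, 58 against 2 for L. brevis minus L. plantarum). Fits on the compared groups only called 1 gene for L. plantarum against germ-free in each genotype, 0 genes and 0 members for L. brevis against germ-free controls, and 6 genes and 0 members for L. brevis against L. plantarum controls. Without the low-count filter 1 member was called between L. brevis and germ-free controls, and without ribosomal RNA genes 11 genes between L. plantarum and germ-free controls. In their deviations from group means, same-numbered libraries correlated by -0.116 to 0.181. With 2 or 3 libraries per group, such correlations cannot decide whether the numbers pair the samples, and the main fit used no pairing. A replicate block called 37 genes for L. plantarum against germ-free Notch RNAi, 0 members for L. brevis against germ-free controls, and 1 and 11 genes for the effect differences L. plantarum minus germ-free and L. brevis minus L. plantarum, and took put germ-free to an adjusted p of 0.0540, brk with L. plantarum to 0.0546, and brk and shn in L. brevis against germ-free controls to 0.0549 and 0.0617. Uncalled values changed sign under the block for Dad in the germ-free comparison of genotypes (-0.025) and in L. brevis against germ-free controls (-0.006), and for the effect differences of gbb (-0.027, and -0.002 without the filter) and sax (-0.015). So did tkv without ribosomal RNA genes for L. brevis against germ-free Notch RNAi (0.004), Mad at a mean count of at least 50 for L. plantarum against germ-free Notch RNAi (0.003), and shn in the compared groups only (-0.008), for L. plantarum against germ-free controls. The causes were not tested.

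Leaving out 1 library at a time gave these ranges, where a lone germ-free control is assumed to vary like the other groups. Members called ran from 5 to 7 in the mean Notch RNAi comparison, 1 to 3 germ-free, 2 to 4 with L. brevis and 2 to 4 with L. plantarum. They ran from 0 to 2 for L. brevis against germ-free and against L. plantarum in Notch RNAi progenitors, and from 0 to 1 and 0 to 3 in controls. All genes called ran from 2428 to 3268 for germ-free Notch RNAi. In Notch RNAi progenitors they ran from 326 to 965 for L. brevis against germ-free, 0 to 19 for L. plantarum against germ-free and 250 to 1649 for L. brevis against L. plantarum. In controls they ran from 35 to 1102, 0 to 44 and 2 to 1292. For the effect differences they ran from 0 to 217 for L. brevis minus germ-free, 0 to 13 for L. plantarum minus germ-free and 0 to 10 for L. brevis minus L. plantarum. Log2 fold changes of uncalled members that changed sign ran as follows. Notch RNAi gave Dad -0.001 to 0.11 in the mean and -0.027 to 0.037 germ-free, tkv -0.090 to 0.079 and Dad -0.25 to 0.081 with L. brevis, and dpp -0.20 to 0.71 and gbb -0.078 to 0.078 with L. plantarum. In Notch RNAi progenitors L. brevis against germ-free gave tkv -0.12 to 0.055, put -0.044 to 0.20, Mad -0.074 to 0.15 and Dad -0.20 to 0.008. L. plantarum against germ-free gave sax -0.13 to 0.014, Mad -0.066 to 0.044 and shn -0.10 to 0.042, and L. brevis against L. plantarum gave dpp -0.44 to 0.037 and Mad -0.070 to 0.15. In controls L. brevis against germ-free gave gbb -0.001 to 0.12, put -0.28 to 0.035 and Dad -0.15 to 0.18. L. plantarum against germ-free gave dpp -0.24 to 0.67, sax -0.23 to 0.047, put -0.23 to 0.089, Dad -0.088 to 0.087 and shn -0.040 to 0.11, and L. brevis against L. plantarum gave put -0.13 to 0.044 and Dad -0.13 to 0.20. Effect differences gave gbb -0.058 to 0.074, Dad -0.27 to 0.067 and brk -0.11 to 0.215 for L. brevis minus germ-free. They gave sax -0.13 to 0.15, put -0.24 to 0.074 and shn -0.15 to 0.017 for L. plantarum minus germ-free, and shn -0.11 to 0.019 for L. brevis minus L. plantarum. Depth limits dpp, tok, vg and ltl, with at most 37 counts in any library.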

Other observations

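Bacterial comparisons held further values among the wider-list genes, both chosen after their values were seen. The BMP-binding protein gene cv-2 was lower in L. brevis controls than in germ-free controls, at a log2 fold change of -1.07 (SE 0.17, adjusted p = 0.00483 in edgeR's quasi-likelihood test), and lower than in L. plantarum controls, at -0.73 (SE 0.15, adjusted p = 0.0267). The first call ended in a fit on the compared groups alone (adjusted p = 0.0602) and without germ-free control sample 2 (-0.895, adjusted p = 0.0760). The other ended in the compared groups alone (0.142) and without L. brevis control sample 1 (0.109) or 2 (0.0672) or L. plantarum control sample 3 (0.121). Without L. brevis control sample 3, the library with the highest sum of visceral muscle markers, cv-2 was at -1.11 (adjusted p = 0.00856) and -0.78 (adjusted p = 0.0371). The type II receptor gene wit stood at 13.9, 15.9 and 12.2 CPM in L. brevis Notch RNAi samples, against 26.8, 28.1 and 25.5 CPM germ-free and 23.6, 31.8 and 30.0 CPM with L. plantarum. Its log2 fold change was -0.93 against germ-free (SE 0.20, adjusted p = 0.0121) and -1.02 against L. plantarum (SE 0.21, adjusted p = 0.00857), and those comparisons share the L. brevis libraries. The first of these calls ended without germ-free Notch RNAi sample 2 (-0.89, adjusted p = 0.0577).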
